A study of Mus musculus with 6 samples.

Results

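The genes described here are 9 genes of the Notch pathway (Notch1, Notch2, Notch3, Jag1, Hes1, Hey1, Hey2, Heyl and Nrarp) and Dlk1, 10 of the 45808 genes in the deposited count table, chosen by their symbols. They were followed in the stromal-vascular fraction of inguinal white fat, the mixed cells left when adipocytes are removed from the tissue, from male mice aged 8 weeks. All 6 libraries are labelled WT. There were 2 libraries per day, numbered 76 and 77: confluent cultures before induction (day 0), cultures after 2 days in the induction medium (day 2), and cultures moved from it to a maintenance medium and collected at day 6. The induction medium held IBMX (0.5 mM), dexamethasone (5 µM) and indomethacin (125 µM), with insulin (850 nM), T3 (1 nM) and rosiglitazone (1 µM), and the maintenance medium held the last 3 of these at unchanged doses. The series title concerns Naa10 in beige fat, the heat-producing fat cells that arise within white fat. No label says that 76 and 77 came from separate animals or dishes, and p-values below therefore reflect only how these libraries spread, which may be technical.

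Notch receptors are cut after they bind a ligand on a neighbouring cell, first by an ADAM protease and then by gamma-secretase. The freed intracellular part enters the nucleus, joins the DNA-binding protein RBPJ and a MAML co-activator, and switches on target genes, above all the Hes and Hey repressors and the feedback inhibitor Nrarp. DLK1, also called Pref-1, resembles the Notch ligands but lacks the domain with which they activate the receptor. It is released from the cell surface by ADAM17 and is known in mice as an inhibitor of adipocyte formation that acts through SOX9, and Notch signalling is known there to hold back beige fat genes.

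The promoter windows of 2 target genes are shown because they hold, in capitals, motifs that RBPJ or the Hes and Hey proteins are known to bind. Windows of the 250 bases before the gene start, from RefSeq on GRCm38.p6, matched 7 of the 10 genes, and bases inside annotated exons were trimmed from the sequences shown. The target genes Hes1, Hey1 and Heyl had no window and were not searched. The search used GTGGGAA, the RBPJ site, TGGGAA, its core and so part of every such match, CACGTG, an E box that Hey and Hes proteins can bind, and CACNAG, an N box, on both strands. Of the 32851 windows in the table, 5.42% held GTGGGAA, 21.6% TGGGAA, 6.02% CACGTG and 36.7% CACNAG. Of the 7 matched genes, Hey2 alone held GTGGGAA, on the opposite strand and starting at -207 from the gene start, so that it reads TTCCCAC below. Nrarp alone held CACGTG, starting at -108. CACNAG occurred in the windows of Nrarp, Notch1, Notch2 and Notch3. The Jag1 and Dlk1 windows held none of the motifs, which says only that these letters are not in those windows. The Hey2 window shown is chr10:30842802-30843033 on the minus strand, and the Nrarp window is chr2:25180508-25180757 on the plus strand.
Hey2: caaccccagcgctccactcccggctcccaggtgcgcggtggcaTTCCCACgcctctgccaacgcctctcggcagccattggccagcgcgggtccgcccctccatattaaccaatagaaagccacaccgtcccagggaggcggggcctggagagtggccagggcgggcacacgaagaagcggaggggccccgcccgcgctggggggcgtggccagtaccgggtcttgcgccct
Nrarp: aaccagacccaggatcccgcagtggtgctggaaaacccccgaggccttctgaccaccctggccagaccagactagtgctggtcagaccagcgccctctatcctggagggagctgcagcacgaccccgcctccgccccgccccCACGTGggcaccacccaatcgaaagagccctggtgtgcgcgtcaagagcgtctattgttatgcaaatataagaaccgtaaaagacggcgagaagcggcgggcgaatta

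The libraries held 22522221 to 29458374 counts in genes. Of the 45808 genes, 14459 passed edgeR's filter on low counts and were tested, among them 9 of the 10 genes described here. Nrarp did not pass. Levels are CPM, read counts per TMM-scaled library of a fixed size, and a gene is said to have risen or fallen where the adjusted p of edgeR's quasi-likelihood test was under 0.05. Markers of adipose progenitors (8 of 8 in the table, none at 0 in every library) summed to 1710 and 1840 CPM at day 0, 1200 and 1440 CPM at day 2, and 685 and 1030 CPM at day 6. Pdgfra (619, 408 and 247 CPM on average) and Ly6a (560, 652 and 447 CPM) held most of these sums. Of the 8, 0 rose and 6 fell at day 2, and 0 rose and 7 fell at day 6, against day 0. Markers of adipocytes (8 of 8, none at 0 throughout) summed to 310 and 382, 5190 and 4630, and 32900 and 27200 CPM over the same days. These are bulk libraries, in which fewer cells of a type and less RNA per cell cannot be told apart.

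Most of the genes described here changed on this course, as most genes did. At day 2 against day 0, 7 of the 9 tested genes passed the test, 2 higher and 5 lower. Over all genes tested 67.1% passed, 33.6% higher and 33.6% lower. In the comparison of day 6 with day 0, 7 passed, again 2 higher and 5 lower, beside 70.9% of all genes, 35.9% higher and 35.1% lower. Between day 6 and day 2, 6 passed, 2 higher and 4 lower, beside 65.7% of all genes, 38.2% higher and 27.5% lower. The share of the 9 that passed was near the share of all genes in each comparison, so the counts are no result about these genes as a set. Their median log2 changes were -0.50, -0.81 and -0.36 in the same order, beside medians of 0.00, -0.01 and 0.12 over all tested genes. With libraries scaled by their totals alone, 38.0% of calls were higher at day 6 against day 0, beside 50.6% with TMM, and 37.1% at day 6 against day 2, beside 58.1%. That scaling moved the median of all genes by 0.11, -0.25 and -0.36 on the log2 scale, in the order of the comparisons above. In edgeR's joint test of the 3 days, 8 of the 9 passed, all but Hey1 (adjusted p = 0.061), beside 84.8% of all genes.

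**Figure D1:**
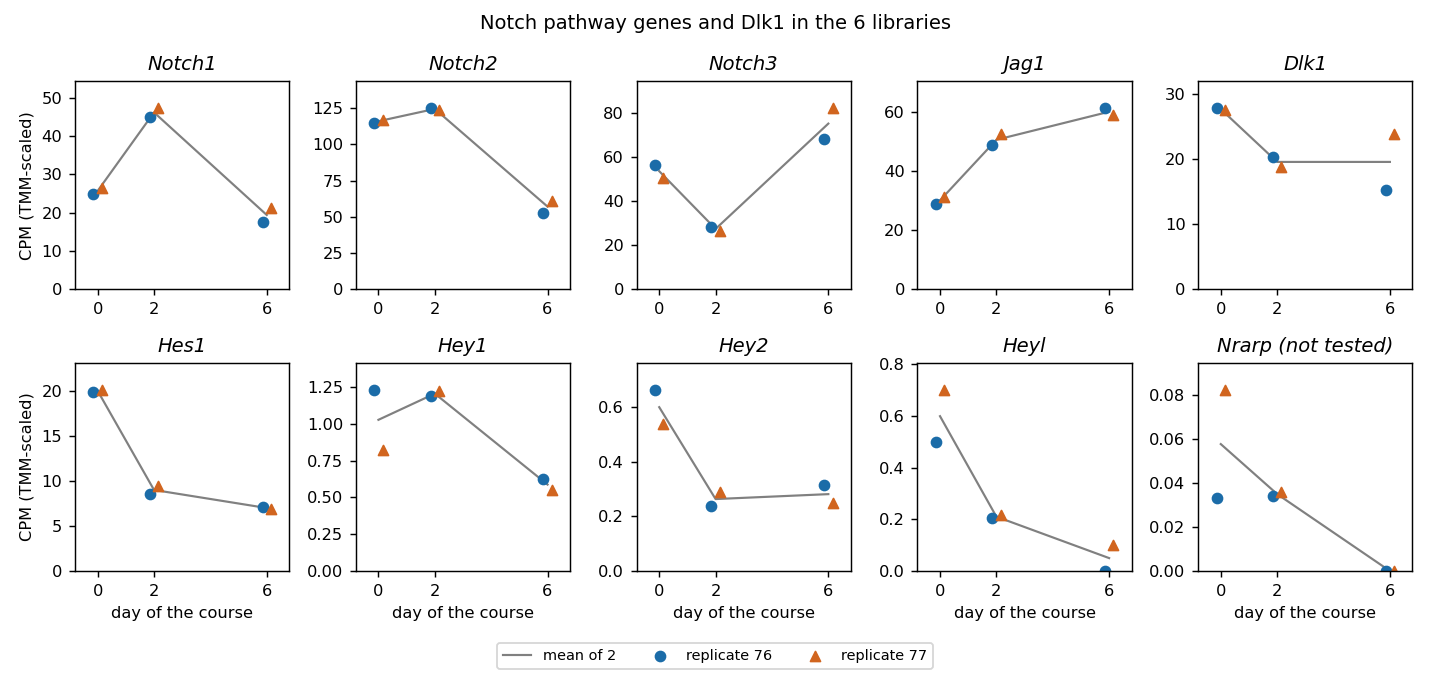
Levels of the 10 genes in each library, as TMM-scaled CPM on a linear axis from 0 (vertical) against the day of the course (horizontal). Points are the libraries and lines join the means of 2. Notch1 peaks at day 2 while Notch3 is lowest there, Jag1 is higher and Hes1 lower on both later days, and the 2 day 6 libraries of Dlk1 lie on either side of the day 2 points.

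The 3 receptors each took a course of their own. Notch1 rose at day 2 and was below its starting level at day 6. Notch2 did not pass the test at day 2 and fell at day 6. Notch3 fell at day 2 and rose above its starting level at day 6.

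Notch1 (chr2:26457903-26516663, minus strand, in GRCm38) encodes a receptor that acts in many developing and adult tissues. It had 756 and 640 counts at day 0, 1326 and 1314 counts at day 2, and 393 and 426 counts at day 6. In CPM this was 25.0 and 26.4, then 45.1 and 47.3, then 17.6 and 21.2. Both day 2 libraries were the highest and both day 6 libraries the lowest, with no overlap between days. The log2 change was 0.85 (SE 0.10, adjusted p = 0.0001 by edgeR) at day 2 against day 0, -0.41 (SE 0.10, adjusted p = 0.0073) at day 6 against day 0, and -1.25 (SE 0.10, adjusted p = 1.25e-05) at day 6 against day 2. The fall at day 6 against day 0 missed the threshold without day 0 replicate 77 (log2 change -0.36, adjusted p = 0.0503). Of its exonic length, 9.76% overlaps other genes, and no source used here gives the strand setting of the counting.

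Notch2 (chr3:98013527-98150361, plus strand) encodes the receptor with the highest level per length of the 3 at days 0 and 2. It was measured at 115 and 117 CPM at day 0, 125 and 124 CPM at day 2, and 52.9 and 61.2 CPM at day 6. The day 0 and day 2 libraries lay close together, and both day 6 libraries lay far below them. The log2 change was 0.11 (SE 0.08, adjusted p = 0.252 by edgeR) at day 2 against day 0. At day 6 it was -1.02 (SE 0.08, adjusted p = 9.27e-06) against day 0 and -1.13 (SE 0.08, adjusted p = 6.59e-06) against day 2.

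Notch3 (chr17:32120820-32166852, minus strand) encodes a receptor best known in mural cells, the contractile cells that wrap blood vessels. It was measured at 56.5 and 50.7 CPM at day 0, 28.4 and 26.4 CPM at day 2, and 68.2 and 82.2 CPM at day 6. The days did not overlap, with day 2 lowest and day 6 highest. The log2 change was -0.97 (SE 0.11, adjusted p = 7.59e-05 by edgeR) at day 2 against day 0, 0.49 (SE 0.10, adjusted p = 0.00284) at day 6 against day 0 and 1.46 (SE 0.11, adjusted p = 7.24e-06) at day 6 against day 2. With library totals as the scaling, the change at day 6 against day 0 was 0.24 and missed the threshold (adjusted p = 0.0912). Mural markers moved with Notch3 in part. Of 9 in the table, 8 were tested and Higd1b was at 0 in every library, and they summed to 664 and 628 CPM at day 0, 135 and 152 CPM at day 2, and 269 and 314 CPM at day 6. At day 2 against day 0, 0 of the 8 rose and 6 fell, at day 6 against day 0, 2 rose and 6 fell, and at day 6 against day 2, 4 rose and 2 fell. Of the sums, Pdgfrb alone held 536, 111 and 139 CPM on average at days 0, 2 and 6. Mcam averaged 17.5, 19.6 and 106 CPM over the same days. Cspg4 (3.16, 0.472 and 20.7 CPM), Myh11 (59.7, 2.63 and 18.0 CPM) and Des (19.6, 2.18 and 6.86 CPM) had their lowest means at day 2, as did Pdgfrb and Notch3. Among these markers with the lowest mean at day 2, Cspg4 alone was above its day 0 mean at day 6. Unlike Notch3, Rgs5, Kcnj8 and Abcc9 had lower means at day 6 (0.381, 0.0499 and 0.871 CPM) than at day 2 (0.540, 0.932 and 6.30 CPM). The part of the mural markers in the Notch3 values was not tested.

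Because the receptors differ in length, their levels were set side by side as CPM per kilobase of merged exons. Notch4, the receptor best known in endothelium and not among the 10 genes, was added so that the 4 receptors of the mouse were covered. It had 248 and 209 counts at day 0, 42 and 38 counts at day 2, and 36 and 41 counts at day 6, and it fell at both later days (log2 change -2.58 at day 2 and -2.21 at day 6 against day 0). The summed level of the 4 receptors was 20.2 ± 0.306 CPM per kilobase at day 0, 18.4 ± 0.124 at day 2 and 16.2 ± 2.00 at day 6 (mean ± SD, n = 2). The make-up of that sum shifted more than the sum. Notch1 held 8.94% ± 0.461 of it at day 0, 17.7% ± 0.710 at day 2 and 8.42% ± 0.0909 at day 6. Notch2 held 53.1% ± 1.33, 63.0% ± 0.167 and 32.7% ± 0.649 over the same days. Notch3 held 32.8% ± 2.04, 18.4% ± 0.854 and 57.4% ± 0.494. Notch2 thus held the largest share in every library of days 0 and 2, and Notch3 in both libraries of day 6. Per length of the longest transcript in place of merged exons, Notch1 held 12.5%, 23.9% and 11.9%, Notch2 50.8%, 58.3% and 31.8%, and Notch3 held 16.8% at day 2 and 54.7% at day 6. By that length Notch1 was above Notch3 in both libraries of day 2 (23.3% against 17.4% in replicate 76 and 24.5% against 16.2% in replicate 77), so the order of these 2 at day 2 depends on the length used. Endothelial markers (10 in the table, 8 tested, none at 0 throughout) summed to 38.5 and 33.4 CPM at day 0, 14.8 and 15.1 CPM at day 2, and 35.2 and 35.7 CPM at day 6, of which Egfl7, which rose, held 21.0 CPM on average at day 6 and 2.09 CPM at day 0. Of the 8 tested, 1 rose and 6 fell at each later day against day 0. Their part in the Notch4 and Notch1 values was not tested.

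**Figure D2:**
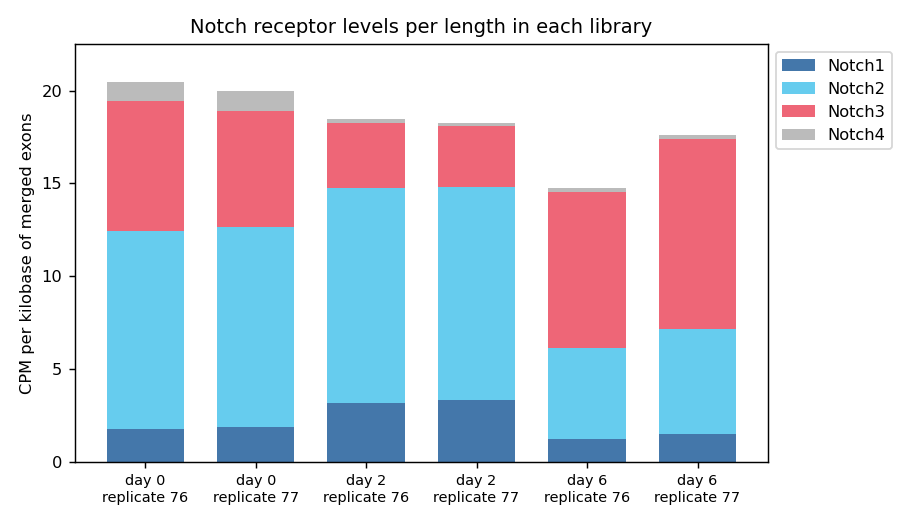
Level of the 4 Notch receptors per length in each library, as stacked CPM per kilobase of merged exons from 0 (vertical), with the libraries in order of day (horizontal). The total is between 14.8 and 20.4 in the 6 libraries, with Notch2 the largest band at days 0 and 2 and Notch3 the largest at day 6.

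Of the ligands, Jag1 rose and Dlk1 had lower means on both later days. Jag1 (chr2:137081456-137116644, minus strand) encodes a transmembrane ligand that activates Notch receptors on adjoining cells. It was measured at 28.9 and 31.3 CPM at day 0, 48.8 and 52.4 CPM at day 2, and 61.3 and 58.9 CPM at day 6. No day overlapped another. The log2 change was 0.75 (SE 0.08, adjusted p = 4.97e-05 by edgeR) at day 2 against day 0 and 1.00 (SE 0.08, adjusted p = 7.54e-06) at day 6 against day 0. Both calls held under every one of the 13 alternative settings. The log2 change at day 6 against day 2 was 0.25 (SE 0.07, adjusted p = 0.0179), and this difference rested on the scaling and on single libraries. It was -0.11 (adjusted p = 0.23) with library totals, 0.11 (0.265) without day 0 replicate 77, 0.19 (0.129) without day 2 replicate 76 and 0.22 (0.0509) without day 6 replicate 76.

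Dlk1 (chr12:109452823-109463336, plus strand) had 840 and 667 counts at day 0, 596 and 524 counts at day 2, and 340 and 480 counts at day 6. In CPM this was 27.8 and 27.5, then 20.3 and 18.8, then 15.2 and 23.9. Both later days lay below day 0, but the day 6 libraries were far apart and enclosed those of day 2. The fit took 1 spread per gene over the 3 days, so that distance also entered the test of day 2 against day 0. The log2 change was -0.50 (SE 0.17, adjusted p = 0.033 by edgeR) at day 2 against day 0 and -0.50 (SE 0.18, adjusted p = 0.0324) at day 6 against day 0, and -0.00 (SE 0.18, adjusted p = 0.984) at day 6 against day 2. These calls were weak, although the log2 change stayed negative under all 13 alternatives. It ranged from -0.55 to -0.36 at day 2 and from -0.85 to -0.20 at day 6, against day 0. As for the calls, the threshold was not always met. Each call held under 7 of 13 alternatives. The fall at day 2 missed the threshold when any 1 library of day 0 or day 2 was left out. It also missed it with DESeq2 (adjusted p = 0.0568) and library totals (0.107). The fall at day 6 against day 0 missed it without day 0 replicate 76 (0.106), day 0 replicate 77 (0.0983), day 2 replicate 76 (0.0543), day 2 replicate 77 (0.056) and day 6 replicate 76 (log2 change -0.20, adjusted p = 0.106), and in a fit of days 0 and 6 alone (0.0566). The direction at day 6 against day 2 was set by the library left out, with a log2 change of 0.29 (adjusted p = 0.0307) without day 6 replicate 76 and -0.36 (adjusted p = 0.013) without day 6 replicate 77. Adipocyte markers were higher and progenitor markers lower in day 6 replicate 76 than in day 6 replicate 77, as the sums above show. Macrophage markers summed to 129 CPM in day 6 replicate 76 and 53.3 CPM in day 6 replicate 77. Their sums were 46.6 and 39.9 CPM in replicates 76 and 77 of day 0, and 58.7 and 29.1 CPM in those of day 2. Lyz2 held most of these sums, at 27.4, 30.2 and 59.4 CPM on average at days 0, 2 and 6. Of the 7 macrophage markers tested, 5 rose and 0 fell at day 6 against day 0. The part of the adipocyte, progenitor and macrophage markers in the Dlk1 values was not tested.

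**Figure D3:**
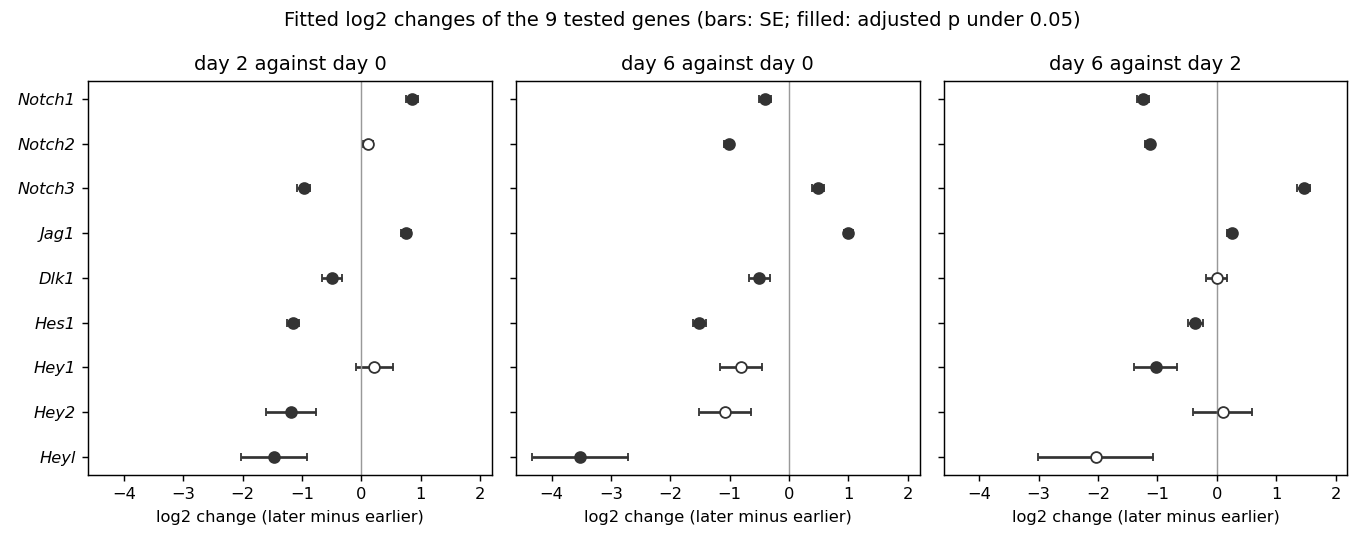
Fitted log2 changes, later minus earlier day (horizontal), of the 9 tested genes (rows) in the 3 comparisons (panels). Bars are SE and filled points passed the test. Notch1 and Notch3 change in opposite directions at day 2 and again at day 6 against day 2, and the widest bars belong to Hey1, Hey2 and Heyl, which had the fewest counts.

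Most other genes of the Dlk1-Dio3 imprinted cluster on chromosome 12 fell at both later days, with larger log2 changes than that of Dlk1. Meg3, Rian and Mirg are long noncoding RNAs expressed from the maternal copy, and Rtl1 and Dio3, like Dlk1, are expressed from the paternal copy. Meg3 was measured at 236 and 191 CPM at day 0, 25.1 and 27.0 CPM at day 2, and 35.6 and 47.5 CPM at day 6. Dio3, which inactivates thyroid hormone, was measured at 28.0 and 28.4 CPM at day 0, 4.22 and 5.22 CPM at day 2, and 8.94 and 16.1 CPM at day 6. Of the 6 cluster genes besides Dlk1, 5 fell at day 2 and 6 fell at day 6 against day 0. Over all genes tested, 33.6% and 35.1% fell in these comparisons. At day 2 the log2 changes were -3.03 (SE 0.15) for Meg3, -2.13 (SE 0.17) for Rian, -2.52 (SE 0.26) for Mirg, -1.67 (SE 0.35) for Rtl1 and -2.58 (SE 0.24) for Dio3, with Begain, which lies upstream of Dlk1, at -0.00 (adjusted p = 1 by edgeR). The values at day 6 against day 0 were -2.36 for Meg3, -2.23 for Rian, -2.39 for Mirg, -1.88 for Rtl1, -1.18 for Dio3 and -1.49 for Begain. The difference between Dlk1 and these genes was not tested. In all 7 genes of the cluster day 6 replicate 76 lay below day 6 replicate 77. Small RNAs and predicted genes overlap several of them in the annotation, over 8.29% of the exonic length of Meg3 and 8.4% of that of Rtl1. Adam17, which releases DLK1, rose at day 2 against day 0 (log2 change 0.66, SE 0.07) and fell at day 6 against day 2 (-0.61). Sox9, the factor that DLK1 is known to raise in mouse preadipocytes, fell at both later days against day 0 (-2.36 at day 2 and -2.10 at day 6, SE 0.12 each). Fn1, fibronectin, to which DLK1 is known to bind, also fell (-1.60 at day 2 and -2.43 at day 6 against day 0, SE 0.22 each).

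**Figure D4:**
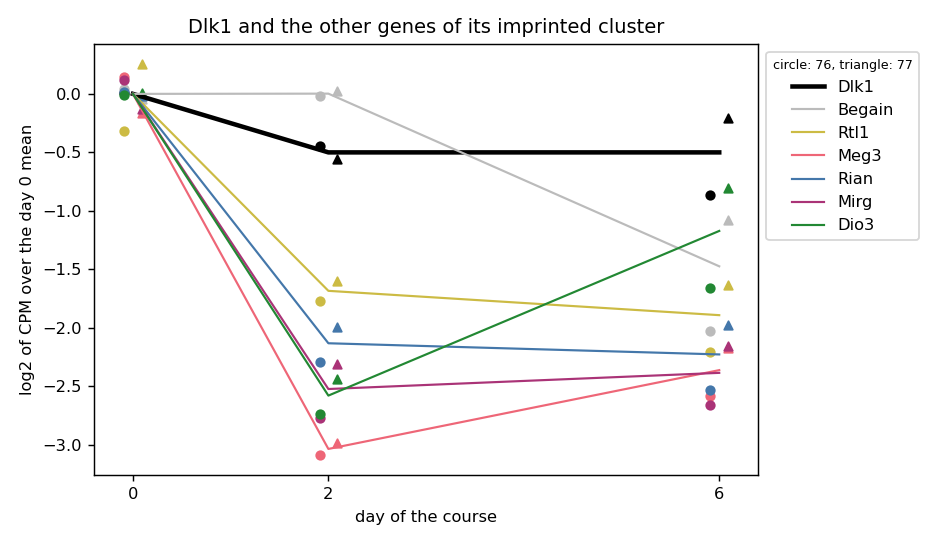
log2 of the CPM of each library over the mean of the day 0 libraries (vertical) against the day of the course (horizontal), for Dlk1 and the 6 other genes of its imprinted cluster. Circles are replicate 76, triangles replicate 77 and lines join the day means. Dlk1, in black, stays closer to its day 0 level than Meg3, Rian, Mirg, Rtl1 and Dio3 on both later days.

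The target genes had lower means on the later days, with the exception of Hey1 at day 2. Hes1 (chr16:30064384-30067796, plus strand) encodes a repressor that is a direct Notch target in many tissues. It had 602 and 487 counts at day 0, 252 and 262 counts at day 2, and 159 and 138 counts at day 6. In CPM this was 19.9 and 20.1, then 8.57 and 9.42, then 7.10 and 6.88. Each day lay below the one before it, with no overlap. The log2 change was -1.15 (SE 0.10, adjusted p = 2.68e-05 by edgeR) at day 2 against day 0 and -1.51 (SE 0.11, adjusted p = 5.65e-06) at day 6 against day 0, and both held under all 13 alternatives. The further fall at day 6 against day 2 (-0.36, SE 0.12, adjusted p = 0.0227) missed the threshold without day 2 replicate 77 (-0.30, adjusted p = 0.112) and without day 6 replicate 77 (-0.34, adjusted p = 0.0625).

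The 3 Hey genes had few counts, and their calls, other than that of Heyl at day 6 against day 0, were lost under several alternatives. Hey1 (chr3:8663359-8667256, minus strand), a repressor that acts with Hey2 in heart and vessel development, had 37 and 20 counts at day 0, 35 and 34 counts at day 2, and 14 and 11 counts at day 6. The day 2 counts lay within the range of day 0, and the day 6 counts were the lowest. At day 6 the log2 change was -0.81 (SE 0.36, adjusted p = 0.0762 by edgeR) against day 0 and -1.03 (SE 0.36, adjusted p = 0.0321) against day 2. The call against day 2 was lost without day 2 replicate 76 (adjusted p = 0.0933), day 2 replicate 77 (0.101), day 6 replicate 76 (0.0771) and day 6 replicate 77 (0.108). At day 2 against day 0 the log2 change was 0.22 (SE 0.31, adjusted p = 0.56).

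Hey2 (chr10:30832359-30842801, minus strand), whose window above holds the RBPJ site, had 20 and 13 counts at day 0, 7 and 8 counts at day 2, and 7 and 5 counts at day 6. Both later days lay below day 0 and overlapped each other. It fell at day 2 against day 0 (log2 change -1.19, SE 0.42, adjusted p = 0.0346 by edgeR), but with the replicate number as a block the adjusted p was 0.0507. That call was also lost whichever of the 6 libraries was left out, with adjusted p of 0.196 and 0.112 without day 0 replicates 76 and 77, 0.17 and 0.103 without those of day 2, and 0.0603 and 0.0606 without those of day 6. At day 6 against day 0 the log2 change was -1.08 (SE 0.44, adjusted p = 0.0559), and at day 6 against day 2 it was 0.10 (SE 0.50, adjusted p = 0.873).

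Heyl (chr4:123233556-123249875, plus strand), a further member of the Hey family, had 15 and 17 counts at day 0, 6 and 6 counts at day 2, and 0 and 2 counts at day 6. It was lower on each later day than on the one before, with no overlap. A count of 0 in day 6 replicate 76 allows a level of up to 0.165 CPM, the upper limit of the exact 95% counting interval. The ratio of day 6 to day 0 was 0.0802 from the summed counts (exact 95% counting interval 0.00932 to 0.314), and edgeR's fitted log2 change was -3.52 (SE 0.81, adjusted p = 0.00438), a value that depends on the prior count. This fall held under the 12 alternatives that tested the gene. The fall at day 2 against day 0 (log2 change -1.47, SE 0.55, adjusted p = 0.0433) was lost without day 0 replicate 76 (adjusted p = 0.0853), day 0 replicate 77 (0.257), day 2 replicate 76 (0.17) and day 2 replicate 77 (0.15), and with DESeq2 (0.237). At day 6 against day 2 the log2 change was -2.04 (SE 0.97, adjusted p = 0.0955), and it passed without day 6 replicate 77 (adjusted p = 0.0386).

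Nrarp (chr2:25180758-25183339, plus strand), a feedback inhibitor that is itself a Notch target, had 1 and 2 counts at day 0, 1 and 1 counts at day 2, and 0 and 0 counts at day 6. These counts lay at or under 3 per library, which is 0.0994 to 0.150 CPM, so that no difference between days was detectable at this depth and no fold is given. Of its exonic length, 79.4% overlaps Gm38287, an antisense gene that had 0 counts in every library. Reads that fall on both genes are set aside as ambiguous when strand is not used, so the counts may not show the level of Nrarp.

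Per length, the 10 genes spanned a wide range. At day 0 the order in CPM per kilobase was Notch2 (10.7 ± 0.106), Hes1 (9.82 ± 0.0430), Notch3 (6.63 ± 0.513), Jag1 (5.17 ± 0.291), Dlk1 (4.89 ± 0.0429) and Notch1 (1.81 ± 0.0659), followed by Hey1 (0.314 ± 0.0870), Hey2 (0.130 ± 0.0195), Heyl (0.117 ± 0.0281) and Nrarp (0.0224 ± 0.0135). Jag1 and Dlk1, and Hey2 and Heyl, differed there by less than the larger of their SDs. At day 2 the order was Notch2 (11.6 ± 0.0475), Jag1 (8.69 ± 0.440), Hes1 (4.42 ± 0.297), Dlk1 (3.46 ± 0.177), Notch3 (3.39 ± 0.180) and Notch1 (3.24 ± 0.108), with the last 3 not separated by more than their SDs from their neighbours among them. At day 6 it was Jag1 (10.3 ± 0.296), Notch3 (9.30 ± 1.23), Notch2 (5.29 ± 0.550), Dlk1 (3.46 ± 1.09), Hes1 (3.43 ± 0.0767) and Notch1 (1.36 ± 0.183). There Jag1 and Notch3 did not differ beyond their spread, and neither did Dlk1 and Hes1. Hey1, Hey2, Heyl and Nrarp were the 4 lowest on all 3 days, between 0 and 0.369 CPM per kilobase.

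Among 78 other genes of the pathway, grouped by role, 69 were tested. At day 2 against day 0, 16 of them rose and 35 fell, with a median log2 change of -0.26. At day 6 against day 0, 14 rose and 31 fell (median -0.27), and at day 6 against day 2, 22 rose and 18 fell (median 0.05). Over all genes tested, 33.6% rose and 33.6% fell at day 2, and 35.9% rose and 35.1% fell at day 6, against day 0. At day 6 against day 2, 38.2% rose and 27.5% fell. These shares are the background for the counts here, for those by role below and for the marker counts above.

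Of 8 other ligand genes 5 were tested, and Dll1, Dll3 and Dll4, the Delta-like ligands, were not. At day 2 against day 0, 3 of the 5 fell and 0 rose. Nov, a secreted matricellular protein known as a noncanonical ligand of NOTCH1, had 10803 and 8263 counts at day 0, 28 and 28 counts at day 2, and 311 and 317 counts at day 6. Its log2 change was -8.47 (SE 0.12, adjusted p = 1.91e-08 by edgeR) at day 2 and -4.56 (SE 0.09) at day 6 against day 0, and 3.91 (SE 0.13) at day 6 against day 2. Of the 6 genes for ligand endocytosis, which lets a ligand pull on the receptor, 1 rose and 4 fell at day 2, and 2 rose and 3 fell at day 6, against day 0. The ubiquitin ligase gene Neurl1a changed most among those that passed (log2 change -2.71, SE 0.45, at day 2 and -3.02, SE 0.50, at day 6).

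Some genes for receptor glycosylation and cleavage rose and some fell, as among all genes tested. Of 8 glycosylation genes, 3 rose and 3 fell at day 2, and 2 rose and 4 fell at day 6, against day 0, and 3 rose and 4 fell at day 6 against day 2. Lfng, one of the Fringe enzymes that alter which ligands a Notch receptor answers to, was measured at 12.0 and 12.3 CPM at day 0, 3.57 and 2.48 CPM at day 2, and 12.4 and 13.3 CPM at day 6. It was low at day 2 alone (log2 change -2.00, SE 0.17, against day 0, and 2.08, SE 0.17, at day 6 against day 2). Mfng, another Fringe gene, rose at day 6 (3.31, SE 0.61, against day 0) and stayed low in level, at 1.30 CPM on average at day 6 and 0.120 CPM at day 0. Of 10 protease genes, 3 rose and 4 fell at day 2, and 2 rose and 5 fell at day 6, against day 0. The gamma-secretase genes Psen2 (log2 change 1.52, SE 0.08) and Psenen (0.67, SE 0.07) were the 2 that rose at day 6 against day 0.

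In the nuclear complex, Rbpj and the 3 Maml genes fell at both later days against day 0, while Kat2a, Kat2b and Snw1 took other courses. Rbpj was measured at 139 and 140 CPM at day 0, 58.6 and 65.5 CPM at day 2, and 54.2 and 62.5 CPM at day 6. Days 2 and 6 overlapped and both lay below day 0. Its log2 change was -1.17 (SE 0.09, adjusted p = 1.02e-05 by edgeR) at day 2 and -1.26 (SE 0.09, adjusted p = 4.74e-06) at day 6 against day 0. The 3 co-activator genes fell too, with log2 changes against day 0 of -0.54 at day 2 and -1.07 at day 6 for Maml1, -1.31 and -1.10 for Maml2, and -1.02 and -0.97 for Maml3. The acetyltransferase gene Kat2a rose at day 2 (0.65, SE 0.07) and fell at day 6 (-0.56, SE 0.07) against day 0, and its relative Kat2b fell at day 2 (-0.68, SE 0.08) and rose at day 6 (0.34, SE 0.07), though with library totals as the scaling the rise was 0.098 and missed the threshold (adjusted p = 0.324). Snw1, a further cofactor gene, had log2 changes of 0.03 and 0.02 (SE 0.07 each) and did not pass at either day. Of the 19 genes of this group, 6 rose and 10 fell at day 2, and 4 rose and 11 fell at day 6, against day 0, and 3 rose and 7 fell at day 6 against day 2. Co-repressor genes of the Groucho family moved apart, with Tle1 at 1.90 and 1.78 and Tle2 at -1.93 and -1.97 at days 2 and 6 against day 0.

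Genes that limit the pathway or turn its proteins over, 13 in number and all tested, counted 2 higher and 5 lower at day 2, and 3 higher and 4 lower at day 6, against day 0. Of these, 5 rose and 1 fell at day 6 against day 2. Dtx2 and Dtx4 of the Deltex family rose at day 6 (log2 change 1.69, SE 0.09, and 1.62, SE 0.11, against day 0), Dtx3 fell (-1.84, SE 0.10), and Dtx3l fell at day 2 (-2.19, SE 0.22). Numb and Numbl, which encode adaptors that oppose Notch, moved apart at day 6 against day 0, at 0.70 (SE 0.07) and -1.60 (SE 0.11). Of 13 genes grouped as other Hes genes and targets, 7 were tested. Of these 1 rose and 5 fell at day 2 against day 0, at day 6 against day 0, 1 rose and 1 fell, and at day 6 against day 2, 4 rose and 1 fell. Myc, a Notch target in T cells, rose at day 2 (2.39, SE 0.08) and fell at day 6 against day 2 (-2.44, SE 0.08). Ccnd1, cyclin D1, took the opposite course (-3.42, SE 0.21, at day 2 against day 0 and 3.15, SE 0.21, at day 6 against day 2), though 23.4% of its exonic length overlaps another gene. Hes6, which counters Hes1, fell at day 2 against day 0 (-0.56, SE 0.09) and averaged 21.8 CPM at day 6, against 22.4 CPM at day 0 (log2 change -0.04, adjusted p = 0.698 by edgeR).

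**Figure D5:**
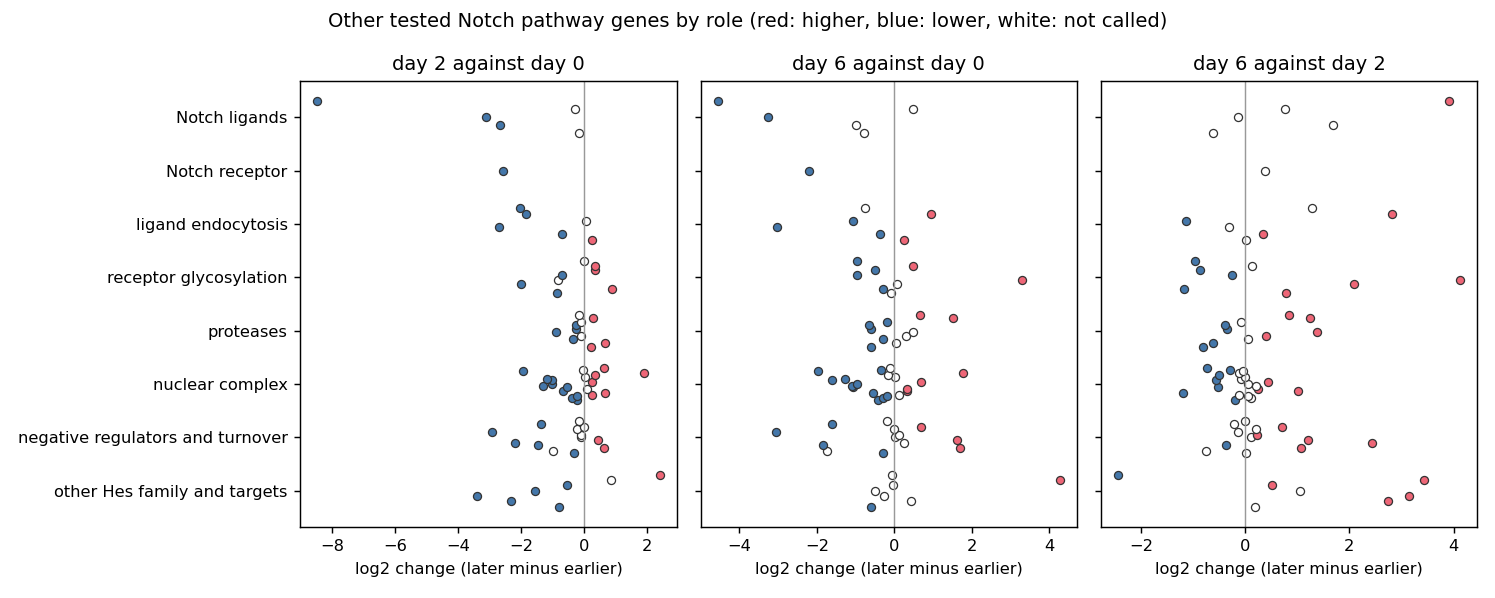
Fitted log2 changes (horizontal, later minus earlier day) of the 69 tested pathway genes besides the 10, by role (rows), in the 3 comparisons (panels). Red points rose, blue points fell and white points did not pass the test. At day 2 against day 0 blue points outnumber red ones, 35 to 16, with Nov farthest out at -8.47, and at day 6 against day 2 they number 18 to 22.

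For each of the 9 tested genes, the 2 genes with the most similar course were found among the 14459 genes tested, leaving out the 9 themselves. Similarity was the Euclidean distance of log2 CPM, with each gene centred on its mean over the 6 libraries. Nearest to Notch1 were Cep85 (distance 0.0874) and Ets2 (0.111), and nearest to Notch2 were Rpl21 (0.0711) and Zfp251 (0.0853). Notch3 had A530020G20Rik (0.184) and Peli3 (0.257) nearest, both farther away than the nearest genes of Notch1, Notch2 and Jag1. Jag1 had Ptch1 (0.0940) and Clptm1 (0.103), and Hes1 had Pdk3 (0.160) and Skida1 (0.174). Dlk1 had Osbpl7 (0.149) and 9130008F23Rik (0.179), of which 1 stayed among the nearest 2 with a prior count of 0.5 in place of 2. For Hey1 (Ccdc134 at 0.249 and Cenpo at 0.250), Hey2 (B3galt4 at 0.178 and Fbxw10 at 0.181) and Heyl (Adgra2 at 0.406 and Tcfl5 at 0.442), the smaller prior count left 0, 1 and 0 of the 2 in place, and those courses rest on few counts.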

How the data were processed

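RNA from 6 libraries, 2 for each of days 0, 2 and 6, was enriched on oligo-dT beads, fragmented and reverse transcribed from random hexamers, per the labels' protocols. The submitters' processing notes name TopHat2 2.0.13 for alignment, HTSeq 0.9.1 for counting, and the builds mm10 and GRCm38. The deposited values are whole read counts per gene without normalization, although the file headers name another unit. No source used here gives the annotation or the strand setting. HTSeq's summary lines (2.62% to 3.23% of alignments outside features, 4.40% to 4.91% ambiguous, 4.16% to 9.05% not unique) stayed out of library sizes and tests. Without molecular identifiers, reads may repeat a molecule, so floors and intervals cover counting error only.

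The test was edgeR 4.0.16 (R 4.3.3), a quasi-likelihood F test with TMM scaling and filterByExpr on all 6 libraries, with a mean per day, no covariate, 3 residual degrees of freedom and Benjamini-Hochberg adjustment over the 14459 genes tested. The common biological coefficient of variation was 0.0830. SE is the log2 change divided by the square root of F. Each gene had 1 spread estimated over the 3 days together, so SE and p do not reflect only the days compared. The day 6 libraries differed most, as the chi-squares below show. Lengths, positions and overlaps come from GENCODE M21 on GRCm38. Libraries of 1 day differed beyond counting noise (chi-square over its degrees of freedom 6.75, 7.53 and 26.3 for days 0, 2 and 6), so each was counted once. Same-numbered libraries deviated weakly together from their day means. Pearson's r across genes was 0.109, 0.112 and 0.213 for days 0 and 2, 0 and 6, and 2 and 6. Spearman's rho was 0.0589, 0.0546 and 0.176 in the same order. The r values, all above 0.1, were taken as pairing, though no source used here says what the numbers mark. The main fit held no term for this pairing, and a fit with the replicate number as a block was run as an alternative. The steps were also run on simulated counts in which few genes changed. That check cannot bear on the scaling of libraries in which most genes changed. Alternatives were other scalings, filters, DESeq2 1.42.0, the replicate block, fits on 2 days and leaving out each library. The genes and lists were chosen with earlier results of these data known. All 10 genes are named, the other pathway genes by their largest changes among those that passed, and the nearest genes by distance. Protein sequences were not used here.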

Additional observations from a re-analysis of the deposited data

How the results depend on the processing

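Over 13 alternatives, the calls of Notch1, Notch3, Jag1 and Hes1 at day 2 against day 0, of Notch2, Jag1 and Hes1 at day 6 against day 0, and of the 3 receptors at day 6 against day 2 held with the same direction under every one. The number of the 9 genes that passed at day 2 against day 0 was 7, but 4 with DESeq2 and 4 to 6 with 1 library left out. It was 5 to 7 and 4 to 6 with 1 library left out in the other comparisons. With the replicate number as a block, Hey2 at day 2 against day 0 (adjusted p = 0.0507) and, of the pathway genes, Neurl1b at day 6 against day 0 (0.0502) lost their calls, and no other pairwise call of the 10 genes changed. The joint test then passed 7 of the 9 genes in place of 8. Pathway genes that passed under the block numbered 16 higher and 35 lower at day 2 and 15 higher and 32 lower at day 6, against day 0, and 22 higher and 19 lower at day 6 against day 2, so some calls were also gained. Pathway genes that rose at day 2 against day 0 numbered 16, and 8 to 16 with 1 library left out, 8 being the number without day 0 replicate 76. With library totals as the scaling, 9 in place of 14 pathway genes rose at day 6 against day 0, and 30 in place of 18 fell at day 6 against day 2, and over all genes 3650 rose and 6182 fell at day 6 against day 2 in place of 5520 and 3981. That scaling moved every gene by the shifts given above, and turned the log2 change at day 6 against day 2 of Jag1 (-0.110), Hey2 (-0.250), Mib2 (-0.020), Kdm5a (-0.122) and Itch (-0.124), and of Mib1 at day 6 against day 0 (-0.005). With 1 library left out, the change at day 6 against day 2 ranged from -0.072 to 0.25 for Hey2 and from -0.365 to 0.291 for Dlk1. Other calls of the 10 genes were lost at day 2 against day 0 by Hey2 with DESeq2 (adjusted p = 0.263) and with no filter (0.109), and by Heyl with library totals (0.0591) and with no filter (0.061). At day 6 against day 2 they were lost by Hey1 with DESeq2 (0.0986) and by Jag1 with RLE size factors (0.0753), DESeq2 (0.228) and the fit of 2 days (0.226). The remaining losses stand beside the genes' values, and the cause was not tested. Hey1, Hey2, Heyl and Nrarp had the fewest counts of the 10 genes, and for Nrarp reads may have been set aside as ambiguous.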
